A study of Mus musculus with 12 samples.

Results

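The response of N2a cells, a mouse neuroblastoma line, to brain-derived extracellular vesicles of the group labelled SE was compared with the response to vehicle. The 8 libraries were the 4 SE-BDEV and the 4 Vehicle libraries of a series of 12. BDEV stands for these brain-derived vesicles. The title of the series gives SE as status epilepticus, which is a seizure that does not stop by itself. The other 4 libraries were labelled CON-BDEV, a name that the labels do not spell out. All groups were the same cell line, and the labels name no genotype, dose or length of treatment. Of 24318 gene rows, 11311 averaged 1 FPKM or more across the 8 libraries and were tested, and 13007 were lower and were not. FPKM is a fragment count scaled to transcript length and library size, so levels of different genes can be compared per length. Genes of lipid synthesis and transport, held in 4 lists, are given only as a scale, and the values below are about the genes outside those lists.

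Extracellular vesicles are membrane-bound particles that cells release and that other cells can bind and take up. They carry lipids, proteins and RNA. N2a cells derive from the sympathetic lineage of the neural crest, and express genes of noradrenaline synthesis, of dense-core secretory granules and of nicotinic and serotonin receptors. Cells that receive sterol from outside lower their own lipid synthesis through the transcription factor SREBP, which is held in the endoplasmic reticulum while sterol is abundant.

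The cells expressed the markers of their line. Of 16 N2a markers 14 reached a mean of 1 FPKM, with sums of 1330 to 1500 FPKM per SE-BDEV library and 1370 to 1410 FPKM per Vehicle library. Approximate depths were 12700000 to 14900000 fragments in SE-BDEV and 14400000 to 15900000 in Vehicle, and every SE-BDEV library but replicate 4 was shallower than every Vehicle library. The part of depth in the differences was not tested. SE-BDEV libraries also spread more: the median SD of log2(FPKM + 1) within the group was 0.0898 in SE-BDEV and 0.0566 in Vehicle. The median absolute deviation of a library from the rest of its group was 0.105 in SE-BDEV replicate 2 and 0.0842 in replicate 3, against 0.0674 and 0.0637 in replicates 1 and 4 and 0.0476 to 0.0533 in Vehicle. On principal components, replicate 3 stood apart from the other 7 libraries on the first axis (27.4% of the variance, score −17) and replicate 2 on the next (23.8%, score 16.6). The labels name no batch, and library names number the vesicle libraries before the Vehicle libraries, so an effect of processing order and the treatment cannot be told apart. Whether replicates were separate cultures is not stated either, so each p-value reflects the spread among these libraries alone, and that spread may be technical.

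Outside the lipid lists 75 of 11218 genes (0.669%) passed an adjusted p of 0.05 in limma, with small changes. Genes that rose included 2 of 19 measured genes of catecholamine synthesis and noradrenergic identity, the enzymes Dbh and Ddc, the granule protein gene Chga (1 of 15 granule genes) and the receptor subunits Htr3a, Htr3b and Chrna3 (3 of 13 receptors). Of 29 actin-binding and LIM genes 3 rose, Pdlim3, Ablim1 and Lima1. Genes that fell included Idh1, which makes NADPH in the cytosol, sugar-metabolism enzymes such as Aldoc and Rpia, the class I gene H2-K1 and several enzymes that handle acyl chains but stand in none of the lipid lists.

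In all, 104 of 11311 genes passed an adjusted p of 0.05 in limma, which is 0.919% of those tested, with 33 higher (0.292%) and 71 lower (0.628%). The lipid lists held 93 of the measured genes and 29 of those that passed, all lower. Outside them 75 of 11218 genes passed (0.669%), 33 that rose and 42 that fell. With each library scaled to the same median, 34 rose and 69 fell outside the lists, so the balance between directions depends on the scaling. The changes were small. The median log2 fold change was 0.28 over the 33 that rose and −0.32 over the 42 that fell, against −0.59 over the 29 lipid genes and 0.01 over all genes tested. Fold changes are on log2(FPKM + 1), where the added 1 shrinks the change of low genes, and on this scale 4 genes outside the lists changed by at least 1.5-fold, 3 predicted loci that rose and Idh1, against 15 of the 29 lipid genes. In all 75 the 4 SE-BDEV values lay on one side of the 4 Vehicle values. Over all genes tested 10.2% had groups that did not overlap, 653 higher (5.77%) and 496 lower (4.39%), and 1045 of these did not pass. At an unadjusted p under 0.05 stood 1676 genes (14.8%), 897 of them higher (7.93%) and 779 lower (6.89%). Counts at this level in a gene list are to be read against those shares. A bulk measurement cannot tell apart less RNA per cell and fewer cells that express a gene.

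**Figure D1:**
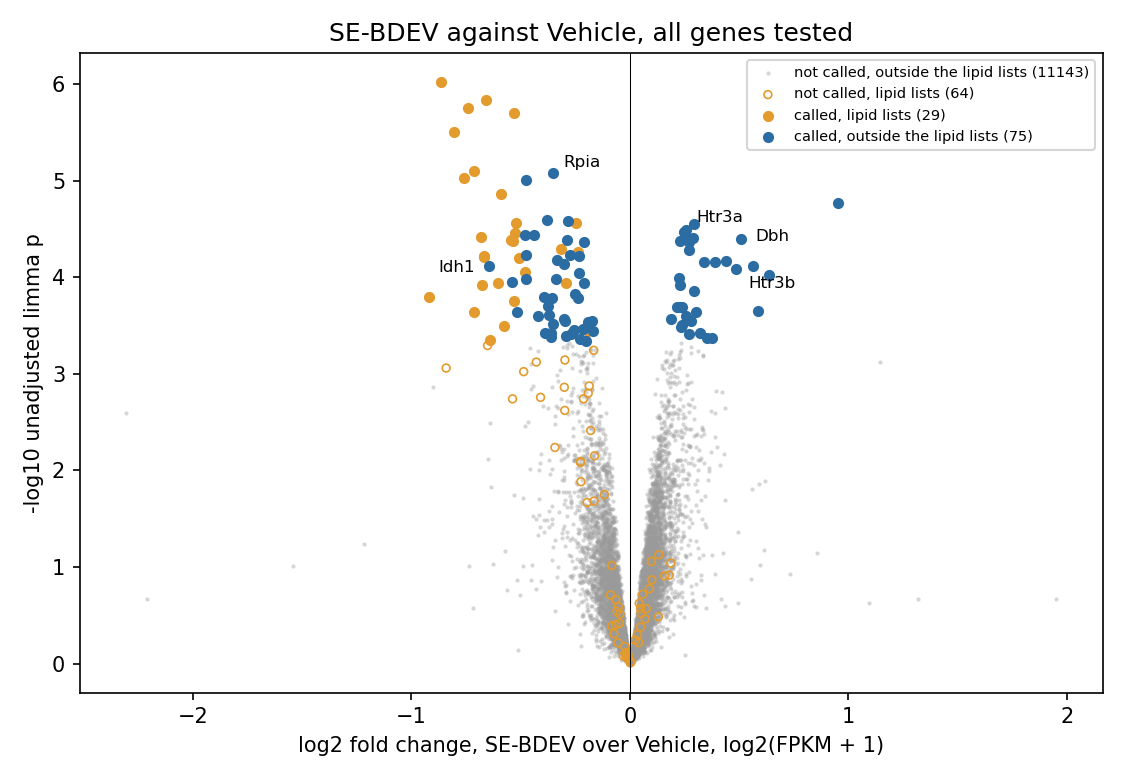
Each point is 1 of the 11311 genes tested, with the log2 fold change of SE-BDEV over Vehicle on the x axis and −log10 of the unadjusted limma p on the y axis. Filled orange points are the 29 called genes of the lipid lists, which all lie left of 0, and filled blue points are the 75 called genes outside them, which lie on both sides and mostly nearer to 0.

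Among genes of catecholamine synthesis and secretion, Dbh, Ddc and Chga rose. Dbh, the enzyme that turns dopamine into noradrenaline in secretory vesicles (mm9 chromosome 2, 27021026 to 27038724), stood at 6.25, 6.95, 7.59 and 6.48 FPKM in SE-BDEV replicates 1 to 4 and at 3.87, 4.70, 4.67 and 4.77 FPKM in the Vehicle replicates. The lowest SE-BDEV library was above the highest Vehicle library, and the fold change was 0.51 ± 0.08 on the log2 scale (± standard error; adjusted p = 0.0158, limma). Ddc, the aromatic amino acid decarboxylase of the step before (chromosome 11, 11714103 to 11798147), was a low gene at 2.00, 1.93, 1.88 and 2.03 FPKM against 1.37, 1.12, 1.27 and 1.37 FPKM. Its SE-BDEV values were close to each other and its mean rose by 52.8%, with a log2 fold change of 0.38 ± 0.07 that passed narrowly (± standard error; adjusted p = 0.0478, limma). These were the called genes among 19 measured genes of catecholamine synthesis and noradrenergic identity, of which 13 were above 0 and the median log2 fold change was 0.06. That median was 0.07 to 0.09 in each of the 4 SE-BDEV libraries and −0.01 to 0.02 in the Vehicle libraries.

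Chga encodes chromogranin A, a core protein of dense-core granules (chromosome 12, 103793178 to 103803237). It read 189, 176, 193 and 191 FPKM with SE-BDEVs and 151, 159, 157 and 162 FPKM with vehicle, a rise of 19.2% (log2 fold change 0.25 ± 0.04 with its standard error; adjusted p = 0.0158, limma). Its list divided. Of 15 measured granin and granule genes Chga alone passed, 4 were higher and 3 lower at an unadjusted p under 0.05, 11 lay below 0 and the median log2 fold change was −0.07. The 3 others above 0 had groups that did not overlap, Chgb (0.17; adjusted p = 0.0732, limma), Nrsn1 (0.18; 0.0932) and Syt7 (0.12; 0.291). Among those below 0, the groups of Scg2 did not overlap (−0.13, adjusted p = 0.106 in limma). These genes were named after their values were seen. Without SE-BDEV replicate 2 Chgb passed (0.18, adjusted p = 0.0474 in limma). Syt4 passed there too, as a gene that fell (−0.19, adjusted p = 0.036 in limma). Syt6, a synaptotagmin of regulated exocytosis, stood between 59.8 and 68.3 FPKM in SE-BDEV and between 50.4 and 51.6 FPKM in Vehicle (log2 fold change 0.29). Syn2, a synapsin that tethers synaptic vesicles, stood between 44.3 and 46.8 FPKM against 37.7 and 40.0 FPKM (0.23). Syn2 was the called member of a list of 27 synaptic vesicle genes with a median of −0.02, with 4 higher and 4 lower at an unadjusted p under 0.05.

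Neurotransmitter receptors were the response list with the largest share of called members, 3 of 13, all higher, with a median log2 fold change of 0.10. Htr3b, the B subunit of the serotonin-gated channel, was low and read 6.05, 4.64, 5.62 and 5.11 FPKM against 3.48, 3.30, 3.44 and 3.90 FPKM (log2 fold change 0.48 ± 0.08 with its standard error; adjusted p = 0.0195, limma). Htr3a, the subunit that can form the channel alone, was far higher at 108, 104, 113 and 111 FPKM against 87.4, 89.6, 93.5 and 93.0 FPKM (0.26 ± 0.04; adjusted p = 0.0158, limma). Both pairs of groups were apart, and the relative rise was larger in the low subunit, 51.6% against 19.8%. The genes are neighbours on chromosome 9, Htr3a at 48707317 to 48719204 and Htr3b at 48743112 to 48773095. Chrna3, a nicotinic subunit typical of autonomic ganglia, stood at 46.6, 43.5, 49.6 and 48.0 FPKM against 35.3, 38.0, 39.6 and 39.5 FPKM (0.29 ± 0.05; adjusted p = 0.0260, limma). Of 18 measured voltage-gated channel genes 0 passed in limma, with 4 higher and 1 lower at an unadjusted p under 0.05 and a median of 0.01.

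Single genes of the actin cytoskeleton and of axon guidance were among the largest rises. Pdlim3, a PDZ and LIM domain protein that binds actinin (chromosome 8, 46970838 to 47004900), had the largest log2 fold change of the named genes that rose. Its values were 21.5, 21.7, 26.2 and 19.4 FPKM with SE-BDEVs and 12.7, 16.1, 15.1 and 14.9 FPKM with vehicle, which is 0.56 ± 0.09 in log2 terms (± standard error; adjusted p = 0.0185, limma). The highest value was that of SE-BDEV replicate 3. Ablim1, an actin-binding LIM protein, stood at 21.4, 21.6, 24.3 and 20.6 FPKM against 16.3, 17.0, 17.5 and 17.8 FPKM (0.34). Lima1, which cross-links actin filaments, stood at 28.8 to 31.3 FPKM against 25.0 to 26.6 FPKM (0.21). These were 3 of 29 measured actin-binding and LIM genes, 0 passed as lower, and the list median was 0.04. In this list 10 genes lay below 0, and at an unadjusted p under 0.05 in limma 9 were higher and 2 lower. Of 16 targets of the actin-responsive factors SRF and YAP 0 passed, with 4 higher at an unadjusted p under 0.05 and a median of 0.04. Plxnd1, a receptor for class III semaphorins, read 9.09, 9.83, 10.4 and 8.89 FPKM against 6.12, 6.72, 6.63 and 7.65 FPKM (log2 fold change 0.44 ± 0.07 with its standard error; adjusted p = 0.0178, limma). It was the called member of 21 axon guidance genes.

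Among growth cone proteins the called genes moved apart. Nrep, a small protein first described in regenerating neurons, stood at 19.1, 18.5, 21.1 and 17.5 FPKM against 14.8, 15.2, 15.9 and 15.1 FPKM (log2 fold change 0.30). Prph, the intermediate filament peripherin of peripheral neurons, fell to 709, 743, 664 and 740 FPKM from 859, 839, 828 and 831 FPKM (−0.23 ± 0.04 with its standard error; adjusted p = 0.0206, limma). Of the 24 measured genes of this list 19 lay below 0 and the median was −0.09. At an unadjusted p under 0.05 stood 11 lower and 1 higher in limma, against 6.89% and 7.93% of all genes. The list median was −0.18 and −0.12 in SE-BDEV replicates 2 and 3 and −0.01 and −0.05 in replicates 1 and 4. It was −0.06 in the fit without replicate 2 and −0.08 in that without replicate 3.

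The other named genes that rose have varied roles. Lix1 reached 24.0 to 27.3 FPKM against 18.0 to 21.0 FPKM (log2 fold change 0.39), and Mrvi1, a substrate of the cGMP-dependent kinase that binds the inositol trisphosphate receptor, 4.62 to 5.83 FPKM against 3.72 to 4.12 FPKM (0.35). The carboxypeptidase gene Cpa4 rose by 0.32 on the log2 scale and the O-mannosyltransferase gene Tmtc1 by 0.29. The SE-BDEV values of Tmtc1 lay close together, at 10.5, 10.1, 10.2 and 9.97 FPKM against 7.87, 8.19, 8.22 and 8.36 FPKM. Timm9, a chaperone of protein import into mitochondria, rose by 0.27, from 38.5 to 43.8 FPKM in Vehicle to 49.1 to 51.0 FPKM in SE-BDEV. Smaller rises were those of the elongation factor subunit gene Supt4a (0.28), the chromatin reader gene Ing4 (0.25), the cap hypermethylase gene Tgs1 (0.24), the anaphase-promoting complex gene Anapc13 (0.23) and Ttc1 (0.19). Tub (0.27), the transporter gene Slco3a1 (0.25), the postsynaptic scaffold gene Tanc2 (0.24), Lrrn3 (0.23), Pdrg1 (0.23) and Alg14 (0.24), which acts early in the assembly of N-glycan precursors, completed the group together with the pseudogene entry Tmem181b-ps (0.27). Supt4a and Tmem181b-ps have near-identical copies, so their values are uncertain.

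**Figure D2:**
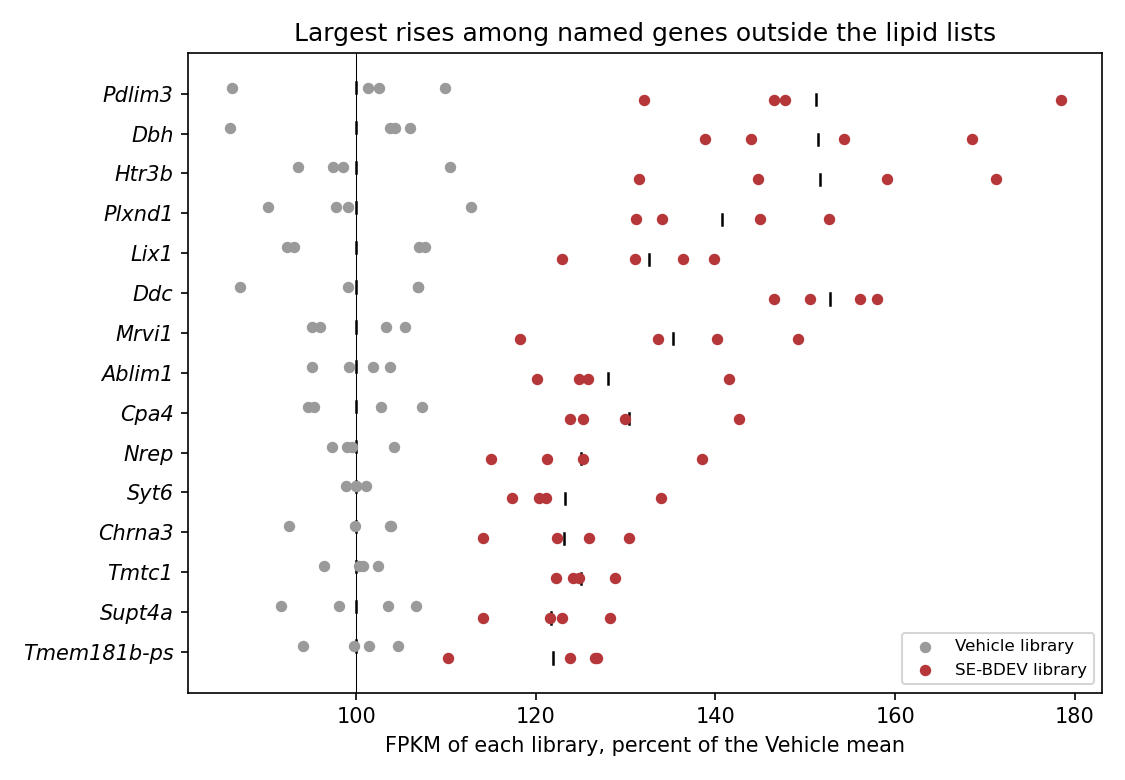
For the 15 named genes outside the lipid lists with the largest log2 rise, each point is the FPKM of 1 library as a percent of the gene's Vehicle mean, with short bars at the group means. SE-BDEV points lie right of the Vehicle points in every row, and the group means are 21.8% to 52.8% above that of Vehicle.

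Falls outside the lipid lists began with metabolic enzymes. Idh1, the cytosolic isocitrate dehydrogenase that yields NADPH (chromosome 1, 65205189 to 65233053), dropped to 43.5, 34.0, 33.3 and 48.2 FPKM in SE-BDEV replicates 1 to 4 from 64.9, 59.6, 63.4 and 60.5 FPKM in Vehicle. The groups were apart, replicates 2 and 3 were lowest, and the log2 fold change of −0.65 ± 0.10 was the largest fall of any named gene outside the lists (± standard error; adjusted p = 0.0185, limma). It was −0.58 without replicate 2 (adjusted p = 0.0182, limma) and −0.57 without replicate 3 (0.047). Rpia, the ribose phosphate isomerase of the pentose phosphate pathway (chromosome 6, 70715713 to 70742169), had narrow groups, at 13.5, 12.3, 13.1 and 13.9 FPKM against 16.9, 17.5, 17.1 and 17.0 FPKM. Its log2 fold change of −0.35 ± 0.04 passed with an adjusted p of 0.0122 (± standard error; limma). Idh1 also stands in a list of 33 targets of NRF2, the regulator of antioxidant genes, where it alone passed and the median was −0.05. In that list 11 genes were lower and 3 higher at an unadjusted p under 0.05 in limma, against 6.89% and 7.93% of all genes. Txnrd3, a thioredoxin and glutathione reductase, fell by 0.30 on the log2 scale.

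Aldoc, the brain form of aldolase, was near the lower limit of the test at 1.00, 0.97, 0.63 and 1.02 FPKM against 1.60, 1.91, 1.68 and 1.67 FPKM. Its log2 fold change was −0.52 ± 0.09 (± standard error; adjusted p = 0.0349, limma), and SE-BDEV replicate 3 lay far below the others. It was the called gene of 22 glycolysis genes, whose median was −0.02, with 2 higher and 3 lower at an unadjusted p under 0.05. Ucp2, a mitochondrial carrier, fell to 159, 137, 130 and 162 FPKM from 201, 184, 188 and 185 FPKM (−0.37 ± 0.07; adjusted p = 0.0362, limma). Nfu1, which delivers iron-sulfur clusters in mitochondria, fell by 13.7% and had close values, 70.2 to 72.7 FPKM against 80.8 to 85.1 FPKM. Of 60 nuclear genes of oxidative phosphorylation 0 passed in limma, with 5 at an unadjusted p under 0.05, all lower, and a median of −0.01.

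Several genes that fell handle acyl chains or lipids and were in none of the 4 lists. Tecr and Hsd17b12 encode the enoyl-CoA reductase and the ketoacyl-CoA reductase of very-long-chain fatty acid elongation. Tecr read 126, 127, 120 and 136 FPKM against 157, 145, 155 and 159 FPKM (log2 fold change −0.27 ± 0.04 with its standard error; adjusted p = 0.0178, limma). Hsd17b12 read 101, 99.3, 94.4 and 106 FPKM against 118, 117, 119 and 117 FPKM (−0.23 ± 0.04; adjusted p = 0.0178, limma). The groups were apart for both genes, and the falls were close in size. Dbi, the acyl-CoA binding protein, stood at 125 to 153 FPKM against 163 to 172 FPKM (−0.30), and Rdh11, a retinol dehydrogenase, at 28.0 to 33.7 FPKM against 37.9 to 40.5 FPKM (−0.34). Echdc1, which removes ethylmalonyl-CoA (−0.39), and the acyl-CoA thioesterase gene Acot9 (−0.23) fell too. These genes were grouped after their values were seen, so the grouping is a description.

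Immune and regulatory genes fell as single members of their lists. H2-K1, a classical class I antigen-presenting molecule (chromosome 17, 34132956 to 34137278), read 40.2, 33.9, 33.3 and 46.6 FPKM against 58.1, 54.4, 57.7 and 54.0 FPKM. Its log2 fold change was −0.54 ± 0.09 (± standard error; adjusted p = 0.0224, limma), with replicates 2 and 3 lowest, as for Idh1. It was −0.49 without replicate 2 (adjusted p = 0.0229, limma) and −0.48 without replicate 3, where the call was lost (0.0558). Class I genes are close relatives, so reads can be divided between them and the value is uncertain. H2-K1 was the called gene of 18 genes of class I presentation (median −0.05), and of 20 interferon response genes 0 passed in limma, with 2 higher and 3 lower at an unadjusted p under 0.05. Nfkb2, a subunit of the non-canonical NF-kB pathway, fell by 0.26 on the log2 scale and was the called gene of 20 in its list.

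Bhlhe40, a repressor tied to the circadian clock and to hypoxia, stood at 11.8, 13.2, 10.3 and 11.9 FPKM against 17.7, 14.3, 15.6 and 16.8 FPKM (log2 fold change −0.42 ± 0.08 with its standard error; adjusted p = 0.0367, limma). The groups did not overlap. It was the called member of 19 clock genes. Hdac9, a class IIa histone deacetylase, read 7.39, 8.41, 7.54 and 8.42 FPKM against 10.4, 10.5, 10.9 and 10.7 FPKM (−0.38 ± 0.05; adjusted p = 0.0158, limma). Klf6, a zinc finger factor also counted as an immediate early gene, fell by 14.1% with nearly constant SE-BDEV values, 20.5 to 21.2 FPKM against 24.0 to 25.1 FPKM. Dusp10, a phosphatase of stress-activated MAP kinases (−0.27), the Mediator subunit gene Med30 (−0.24), the F-box gene Fbxl20 (−0.25) and the kinase gene Stk32c (−0.34) also fell. Cdkn2a, whose overlapping transcripts encode INK4A and ARF, fell by 0.19 and was the called gene of 23 p53 targets and CDK inhibitors.

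Falls also touched membrane traffic, the cell surface and filaments. Clcn6, a late endosomal chloride and proton exchanger (chromosome 4, 147380592 to 147412876), read 17.7, 15.7, 16.8 and 20.9 FPKM against 26.3, 25.0, 24.0 and 24.5 FPKM (log2 fold change −0.47 ± 0.07 with its standard error; adjusted p = 0.0178, limma). The other 6 endosomal and lysosomal chloride transporter genes did not pass, and the median of the 7 was 0.06. Sgsm1, a regulator of Rab GTPases, stood at 11.7, 10.6, 11.1 and 13.5 FPKM against 16.5, 16.1, 16.5 and 15.7 FPKM (−0.44), and Rab24 fell by 0.30. Of 42 genes of endocytosis and ESCRT 0 passed in limma, with 3 higher and 6 lower at an unadjusted p under 0.05.

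Anxa2, an annexin that binds membranes and actin, read 67.5, 60.0, 62.5 and 63.5 FPKM against 79.9, 75.7, 75.9 and 77.5 FPKM (log2 fold change −0.28 ± 0.04 with its standard error; adjusted p = 0.0158, limma). Of 14 measured annexin and S100 genes it alone passed, 11 lay below 0 and the median was −0.09. Lgals1, which encodes galectin-1 and was the most abundant of the called genes named here, fell by 13.8%, from 1379 to 1465 FPKM in Vehicle to 1145 to 1300 FPKM in SE-BDEV. The actin monomer-binding Tmsb4x (−0.20), the actin-regulating Baiap2l1 (−0.17) and Afap1l1 (−0.29), the septin gene Sept5 (−0.29) and the intermediate filament gene Sync (−0.48) fell, in contrast to the LIM proteins that rose. Surface and matrix genes that fell were the matrix glycoprotein gene Optc (−0.48), Smagp (−0.38), Tspan14 (−0.36), the glycosyltransferase gene B3gnt3 (−0.36) and the phosphate transporter gene Slc20a1 (−0.17). Narf (−0.39) and the mitochondrial ribonuclease gene Lactb2 (−0.35) made up the rest.

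**Figure D3:**
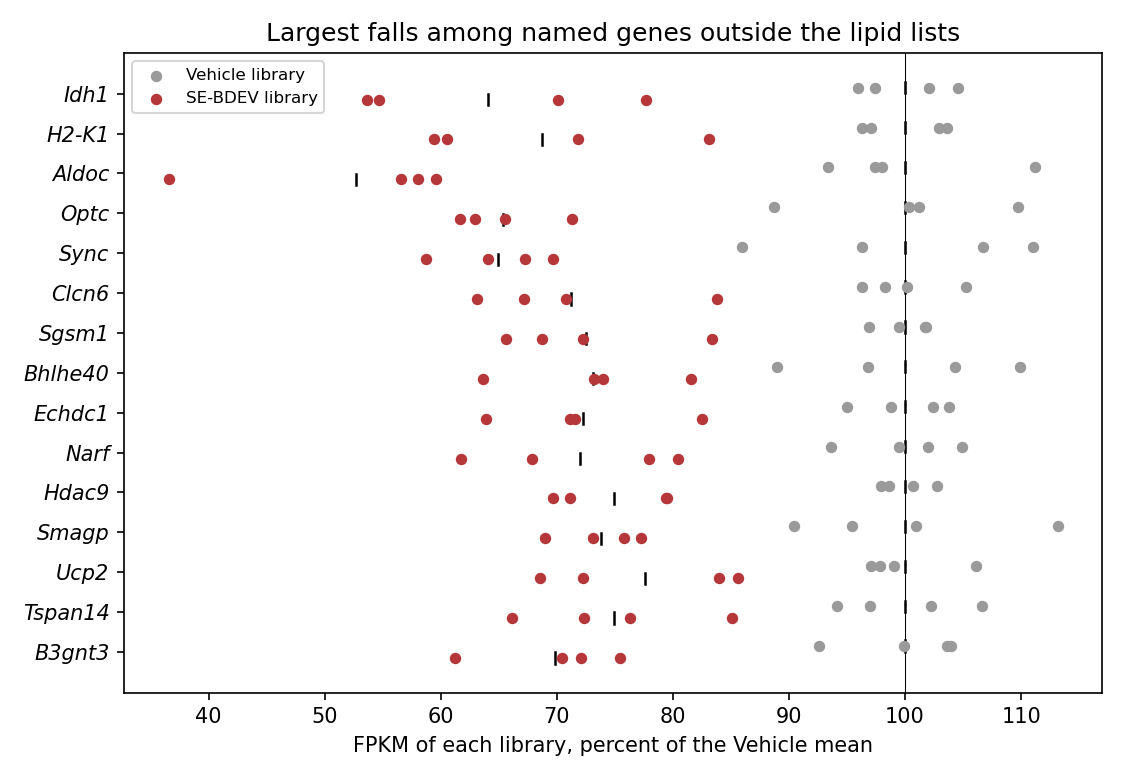
For 15 of the genes named here with the largest log2 falls outside the lipid lists, each point is the FPKM of 1 library as a percent of the gene's Vehicle mean, with short bars at the group means. SE-BDEV points lie left of the Vehicle points in every row, and Aldoc fell by 47.3%, the most of the 15 as a percent of its mean.

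Promoters of genes that moved together were compared by short letter strings, because a CCAAT box, bound by the factor NF-Y, lies beside the SREBP site in many sterol-regulated promoters. The windows ran from 250 bases before to 50 bases after each RefSeq start (GRCm38.p6), and CCAAT was searched on both strands, so that it can read ATTGG. Of the called lipid genes with a promoter in the table, 17 of 21 held the letters (81%). Among those that fell outside the lists 20 of 35 held them (57.1%), among those that rose 8 of 24 (33.3%), and among all genes tested 3788 of 8673 (43.7%). A gene counted if any of its windows held them. Of single windows, all of this length, 70.8% held them for the called lipid genes and 46% for the others that fell. The share was 24.2% for those that rose, 38.2% for all genes tested and 37.4% for the whole table. A match is a description of letters and no site of binding. Promoters of 3 genes that fell outside the lists, Idh1, Rdh11 and H2-K1, are shown with that of Lss, the lanosterol synthase of the lipid lists, as a scale, with CCAAT or ATTGG in capitals. They lie at chr1:65186430-65186729 (minus strand), chr12:79190912-79191211 (minus), chr17:34000298-34000597 (minus) and chr10:76531355-76531654 (plus) of GRCm38.p6.
Idh1: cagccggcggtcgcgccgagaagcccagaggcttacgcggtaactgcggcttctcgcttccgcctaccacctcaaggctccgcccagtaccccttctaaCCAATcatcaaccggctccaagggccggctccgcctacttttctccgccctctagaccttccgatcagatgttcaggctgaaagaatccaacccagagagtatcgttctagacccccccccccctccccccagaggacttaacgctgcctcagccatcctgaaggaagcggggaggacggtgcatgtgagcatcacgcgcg
Rdh11: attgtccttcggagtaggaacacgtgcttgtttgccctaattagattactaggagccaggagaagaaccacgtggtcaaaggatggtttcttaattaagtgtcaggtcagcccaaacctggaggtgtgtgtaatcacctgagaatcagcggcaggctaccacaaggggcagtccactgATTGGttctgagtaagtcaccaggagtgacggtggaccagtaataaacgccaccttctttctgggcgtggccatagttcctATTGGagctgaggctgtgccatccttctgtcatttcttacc
H2-K1: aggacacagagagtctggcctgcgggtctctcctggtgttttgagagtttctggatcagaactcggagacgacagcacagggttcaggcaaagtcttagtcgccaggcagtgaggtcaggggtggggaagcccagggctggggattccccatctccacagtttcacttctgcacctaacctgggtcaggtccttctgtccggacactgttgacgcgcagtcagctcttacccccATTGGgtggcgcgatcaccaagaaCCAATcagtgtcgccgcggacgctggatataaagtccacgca
Lss: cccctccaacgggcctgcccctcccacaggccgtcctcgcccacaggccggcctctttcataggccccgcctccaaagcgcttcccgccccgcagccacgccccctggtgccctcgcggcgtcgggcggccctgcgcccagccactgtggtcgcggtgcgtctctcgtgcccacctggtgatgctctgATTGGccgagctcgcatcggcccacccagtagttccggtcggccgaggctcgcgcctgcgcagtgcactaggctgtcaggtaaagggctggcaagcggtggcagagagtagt

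The TCACCCC letters of a sterol element stood in 2 of 21 lipid genes (9.52%), 4 of 35 other genes that fell (11.4%), 0 of 24 that rose and 6.08% of all genes tested, on either strand. The E-box CACGTG was in 19% of the lipid genes, 14.3% of the others that fell, 12.5% of those that rose and 11.9% of all, and the GC box GGGCGG in 85.7%, 77.1%, 66.7% and 71.1%. TGACGT, the core of the cAMP response element, was in 19%, 11.4%, 16.7% and 14.1% of the same sets, in that order. These are shares of genes. Of single windows, the others that fell and all genes tested held TCACCCC in 8% and 5.16% and CACGTG in 10% and 10%. For GGGCGG these shares were 64% and 64.2%, and for TGACGT 8% and 12%. One of the genes that rose and hold TGACGT is Chga. Its promoter is shown because it carries these letters at position −44 from the start (chr12:102554691-102554990 of GRCm38.p6, plus strand, letters in capitals).
Chga: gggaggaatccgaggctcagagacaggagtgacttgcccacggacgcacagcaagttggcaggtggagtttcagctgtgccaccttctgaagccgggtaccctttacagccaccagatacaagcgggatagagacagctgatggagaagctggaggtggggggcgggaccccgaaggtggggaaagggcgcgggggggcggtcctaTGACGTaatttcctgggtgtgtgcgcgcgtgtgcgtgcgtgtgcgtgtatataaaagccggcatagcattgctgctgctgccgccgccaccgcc

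Across 39 lists of response genes outside lipid synthesis the called members were few and scattered. The medians of the lists lay within 0.10 of 0 except for the replication-dependent histones. In that list 10 of 13 measured genes were above 0 and the median was 0.27, but 0 passed in limma (2 at an unadjusted p under 0.05, both higher), most were below 10 FPKM and the median per library was 0.11 to 0.43 in SE-BDEV and −0.06 to 0.11 in Vehicle. Polyadenylated RNA was sequenced, and how far that selection captures these histone transcripts was not tested. Some lists shifted slightly but widely in one direction. Of 52 DNA replication genes 43 were above 0 with a median of 0.05, and of 77 cytosolic ribosomal protein genes 74 were below 0 with a median of −0.07, against 54.6% of all genes above 0. The per-library medians of the replication list were 0.04 to 0.07 in SE-BDEV and −0.01 to 0.01 in Vehicle, so the groups did not overlap. Those of the ribosomal list were −0.10, −0.06, −0.08 and −0.02 in SE-BDEV and reached −0.02 in Vehicle replicate 1, below SE-BDEV replicate 4. In both lists 0 genes passed in limma. At an unadjusted p under 0.05 stood 14 of the 52, all higher, and 32 of the 77, all lower, against 7.93% of all genes higher and 6.89% lower.

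**Figure D4:**
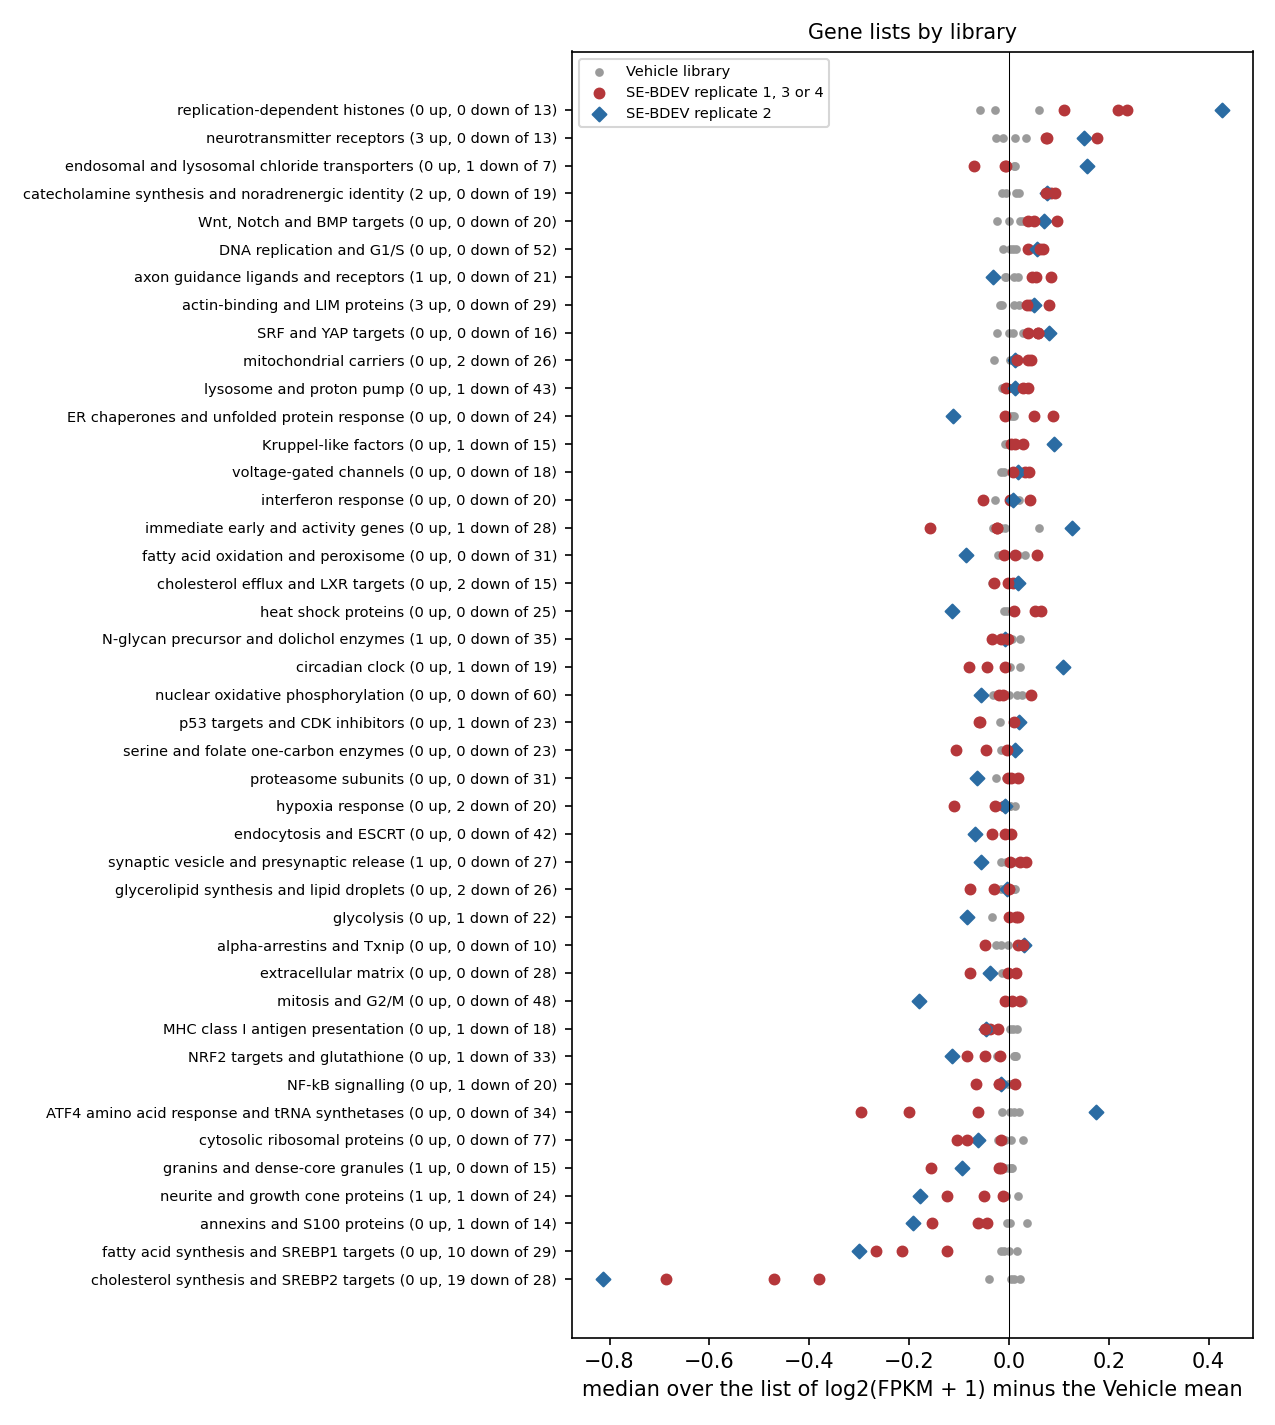
Each row is a gene list, and each point is the median over its tested genes of log2(FPKM + 1) in 1 library minus the Vehicle mean. Vehicle libraries (grey) are centred near 0 because their own mean was subtracted. The cholesterol and fatty acid lists lie left of 0 in all 4 SE-BDEV libraries. SE-BDEV replicate 2 (blue diamond) lies opposite to replicates 1, 3 and 4 (red) in the ATF4 list, at 0.17 against −0.30 to −0.06.

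SE-BDEV replicate 2 differed from the other libraries most plainly in stress genes. ATF4 is the transcription factor that raises amino acid transporters, tRNA synthetases and the death-linked factor Ddit3 when translation is restrained. With all 8 libraries 0 of 34 measured genes of this response passed in limma, with 9 lower at an unadjusted p under 0.05 and a median of −0.07, which was −0.19 without replicate 2 and −0.01 without replicate 3. The genes named in this paragraph and the next are outside the naming rule and were chosen after their values were seen. Ddit3 read 102, 301, 78.7 and 143 FPKM in SE-BDEV replicates 1 to 4 and 192, 145, 154 and 153 FPKM in Vehicle. Trib3, a pseudokinase induced with it, read 48.8, 140, 40.5 and 67.0 FPKM against 68.8 to 76.8 FPKM. In both, replicate 2 lay above every Vehicle library and the other 3 SE-BDEV libraries lay below every Vehicle library. Atf4 itself differed less, at 562, 681, 546 and 650 FPKM against 666 to 680 FPKM.

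Without SE-BDEV replicate 2, 315 of 11299 genes passed (2.79%; 1.04% higher and 1.74% lower), of which 118 rose and 155 fell outside the lipid lists, and all 75 genes called with every library were among them. The additional genes included ATF4 targets: 9 of 34 fell. Replicate 2 was described apart from the others after these values were seen. It lay above the other SE-BDEV libraries in this list, so leaving it out had to lower the list, and the count is a description. Examples were Cebpb (log2 fold change −0.61), the amino acid transporter genes Slc7a3 (−0.41) and Slc3a2 (−0.30), the tryptophanyl-tRNA synthetase gene Wars (−0.29) and the asparagine synthetase gene Asns (−0.23). Of 23 enzymes of serine and folate one-carbon metabolism 6 fell without replicate 2, with a list median of −0.03, among them Cth (−0.79), Aldh1l2 (−0.46), Shmt2 (−0.33), Psph (−0.33) and Phgdh (−0.26). Within SE-BDEV all of those named were highest in replicate 2, so the same limit holds. With all libraries 0 of 23 passed in limma, 2 were higher and 3 lower at an unadjusted p under 0.05 and the median was −0.01. That median was −0.02 without replicate 3. Cth, which makes cysteine from cystathionine, read 26.2, 59.4, 17.9 and 34.3 FPKM in SE-BDEV replicates 1 to 4 and 42.2 to 48.2 FPKM in Vehicle. Actin-binding and LIM genes that rose went from 3 to 6 of 29 with Cnn2, Csrp1 and Myl9 added, and clock genes that fell from 1 to 3 of 19 with Ciart and Nfil3. The mitosis list, whose median was −0.04 with all libraries, had a median of 0.00 without replicate 2 and −0.06 without replicate 3. In replicate 2 the list median was −0.18, against −0.01 to 0.02 in the other SE-BDEV libraries.

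The 4 SE-BDEV libraries also differed in the size of the whole response. Median log2 differences from the Vehicle mean over the 29 lipid genes were −0.48, −0.77, −0.69 and −0.38 in replicates 1 to 4. Over the 42 other genes that fell they were −0.29, −0.35, −0.36 and −0.24, and over the 33 that rose 0.28, 0.27, 0.32 and 0.27. Replicate 4 held the highest of the 4 SE-BDEV values in 27 of 29 lipid genes and in 28 of the 42 others that fell, so its response was the weakest in both sets. It was also the deepest SE-BDEV library, and the part of depth in this was not tested. The genes that rose varied less between libraries, and replicate 3 was highest in 17 of the 33.

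The calls rest on every Vehicle library. Without Vehicle replicate 1, 2, 3 or 4 only 6, 5, 7 and 16 genes passed, and outside the lipid lists 1, 0, 2 and 8. Of the genes named here Optc, Plxnd1, Rpia, Sync and Timm9 kept their call in 1 of these 4 fits and the others in none. Leaving out SE-BDEV replicate 1 or 3 left 55 and 50 called genes and leaving out replicate 4 left 126. Of the 75 genes outside the lists 28, 28 and 55 kept their call in these fits, in that order. Over the 4 fits that each left out an SE-BDEV library, Dbh, Chga, Htr3a and Ablim1 kept their call in all 4. Ddc, Chrna3, Lima1 and Bhlhe40 kept it in 1. No named gene changed direction in any of these fits, but this was fixed in advance. The groups of all 75 called genes outside the lists did not overlap, so leaving out a library could not reverse them.

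**Figure D5:**
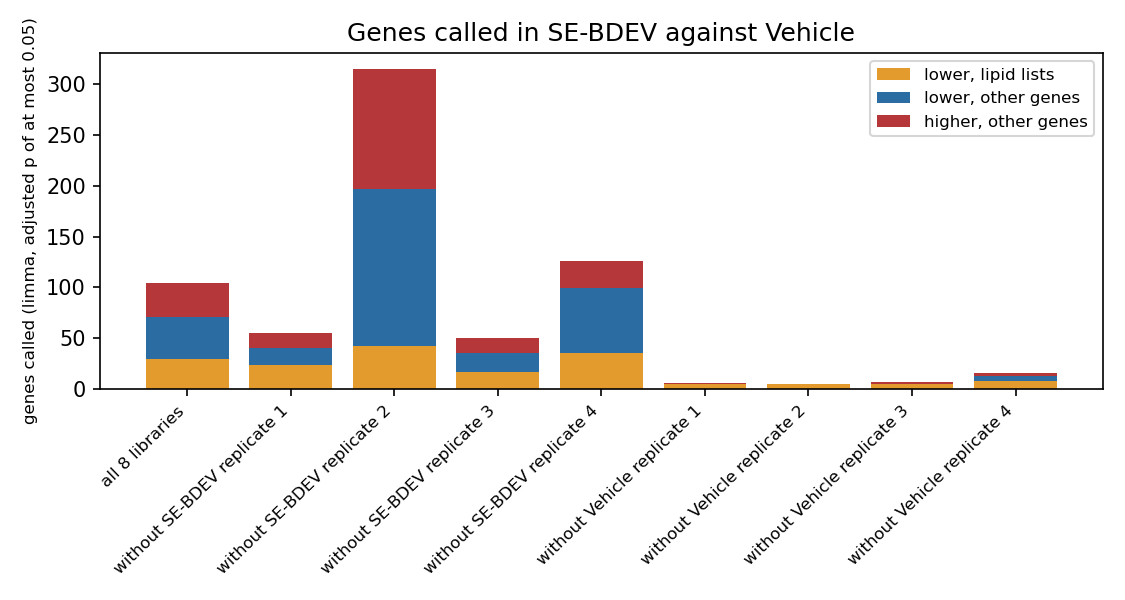
Bars give the number of genes called (limma adjusted p of at most 0.05) with all 8 libraries and with each library left out, divided into lipid list genes that fell (orange), other genes that fell (blue) and other genes that rose (red). The count is 104 with all libraries, 315 without SE-BDEV replicate 2 and 5 to 16 without any 1 Vehicle library.

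Values with CON-BDEVs are given beside those with SE-BDEVs. The comparisons share the Vehicle libraries, so their likeness is no separate evidence. Log2 fold changes for SE-BDEV and CON-BDEV over Vehicle were 0.51 and 0.50 for Dbh, 0.38 and 0.42 for Ddc, 0.25 and 0.20 for Chga, 0.48 and 0.46 for Htr3b and 0.56 and 0.47 for Pdlim3. Among the genes that fell they were −0.65 and −0.62 for Idh1, −0.54 and −0.43 for H2-K1 and −0.38 and −0.43 for Hdac9. No rule set which genes are given here. Other called genes were less alike, with 0.28 and 0.10 for Supt4a and 0.19 and 0.08 for Ttc1. For B3gnt3 the values were −0.36 and −0.14, and for Alg14 0.24 and −0.07. In CON-BDEV against Vehicle 321 of 11320 genes passed (2.84%). Tested directly over 12 libraries, 0 of 11312 genes differed between SE-BDEV and CON-BDEV in limma, and 296 (2.62%) had an unadjusted p under 0.05. The smallest adjusted p, 0.643, belonged to Alg14. Its mean was 23.9 ± 0.66 FPKM in SE-BDEV, 19.2 ± 1.49 FPKM in CON-BDEV and 20.1 ± 0.94 FPKM in Vehicle (SD, n = 4 each), and the log2 difference between the vesicle sources was 0.30 ± 0.05 (standard error). Of the 75 genes, 6 had an unadjusted p under 0.05 between the sources, Alg14, Supt4a, Anapc13, Ttc1, Med30 and B3gnt3. The 75 were chosen on the same SE-BDEV values, so this number is a description. The limma test does not show that the vesicle sources act alike: for Dbh the difference was 0.01 and for H2-K1 −0.11, each with a standard error of 0.08.

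The authors' deposited table, made with Cuffdiff, called 140 of 11928 genes (1.17%). Of the 75 genes outside the lipid lists 39 were called there too and 36 were not, Ddc, Syn2, Slco3a1 and Timm9 among the latter. The authors' deposited table called 65 other genes outside the lists, 27 of them higher. The 5 with the largest change in it were Akr1b7 (log2 fold change −1.06, q = 0.0242), Slc40a1 (0.66, q = 0.00686), Fam129a (−0.65, q = 0.00686), Galnt5 (0.59, q = 0.00686) and Pla2g2e (−0.56, q = 0.0469) in the authors' deposited table. Fam129a stood at 7.67, 14.3, 6.09 and 9.55 FPKM in SE-BDEV and at 18.1, 14.5 and 13.5 FPKM in Vehicle replicates 1, 3 and 4, with Vehicle replicate 2 the lowest, so that SE-BDEV replicate 2 lay within the Vehicle range and the others below it. Pla2g2e and Akr1b7 showed the same arrangement, with replicate 2 at 7.94 and 1.74 FPKM. Slc40a1, the iron exporter ferroportin, stood at 1.53 to 2.38 FPKM against 0.86 to 1.39 FPKM.

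Markers of other brain cell types were low in all 8 libraries. Of 10 astrocyte markers 2 reached a mean of 1 FPKM, with sums of 14.9 to 18.8 FPKM in SE-BDEV and 18.4 to 21 FPKM in Vehicle, and Slc1a3 and Gjb6 were listed at 0. Aldoc, which fell, is one of the 2. Oligodendrocyte markers summed to 16.8 to 20 FPKM against 17.3 to 18.9 FPKM (3 of 10 at 1 FPKM, with Mag, Olig1 and Olig2 at 0), and forebrain neuron markers to 12.6 to 14.8 FPKM against 13.3 to 15.1 FPKM (3 of 10, with Neurod6 at 0). Microglia markers summed to 1.94 to 1.98 FPKM against 1.41 to 2.14 FPKM (1 of 10, with Cx3cr1 and the 3 C1q genes at 0). Endothelial markers summed to 3.96 to 5.34 FPKM against 3.74 to 4.56 FPKM (1 of 10, with Cldn5 and Slco1a4 at 0). Choroid plexus markers gave 9.13 to 12.5 FPKM against 9.43 to 12.1 FPKM (1 of 6). Red blood cell markers reached 1 FPKM in 0 of 5, with sums of 0.0348 to 0.33 FPKM in SE-BDEV and 0 to 0.0356 FPKM in Vehicle. The ranges of the groups overlapped in every list, by least in the red blood cell and astrocyte lists. The part of other cells or of RNA carried by the vesicles in the results was not tested.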

How the data were processed

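Polyadenylated RNA of N2a cells was sequenced after column extraction and strand-keeping library preparation, per the labels' protocols. TopHat2, Cuffdiff and mm9 are named in the submitters' processing notes. From these the authors made the deposited FPKM values, log2 fold changes, test scores, p-values and q-values, per the file headers. Which annotation was used and whether counting kept the strand is not given in the sources used here. Overlapping and near-identical genes are uncertain for that reason. Each entry with several gene names (100 in all), predicted loci and short RNA genes were only counted.

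After log2(FPKM + 1), limma 3.58.1 (R 4.3.3, empirical Bayes with trend, two-sided) was fitted to 4 SE-BDEV and 4 Vehicle libraries over genes averaging 1 FPKM or more, with Benjamini-Hochberg adjustment over all genes tested and a threshold of 0.05. Every adjusted p of a gene is limma's unless the authors' table is named. The comparison of vesicle sources used all 12 libraries. Genes called outside the lipid lists could be named, with values per library for the 15 largest rises, the 15 largest falls and called list members, and the 5 largest changes called by the authors' table alone; some genes that meet the rule are not reported here. The members, the naming rule and the 4 lipid, 39 response and 8 marker lists were chosen with earlier results of these data known, and lists are described by counts and medians, with no test. Library totals are not part of the tables used here, so depth was estimated by taking the lowest nonzero values as 1 fragment, with transcript lengths of a newer annotation, and no counting intervals are given. Alternatives covered the pseudocount, filter, scaling, replicate block, trend, library weights and left-out libraries. Plots used matplotlib 3.10.9 (Python 3.11.15).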

Additional observations from a re-analysis of the deposited data

Results flagged for a closer look

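Of 142 groups of 4 values of the named genes, 8 held a library whose gap to the nearest of the others exceeded Dixon's critical share of the range, and chance gives about 1 in 20. In SE-BDEV these were Aldoc in replicate 3 (0.628 FPKM, next 0.971), Slc20a1 in replicate 3 (38.1 FPKM, next 39.1), Slco3a1 in replicate 2 (67.1 FPKM, next 70.9) and Baiap2l1 in replicate 4 (246 FPKM, next 230). In Vehicle they were Dbh in replicate 1 (3.87 FPKM, next 4.67), Slco3a1 in replicate 1 (56 FPKM, next 59.6), Klf6 in replicate 3 (25.1 FPKM, next 24.1) and Afap1l1 in replicate 3 (11.8 FPKM, next 12.4). Except for Baiap2l1, Slco3a1 in SE-BDEV and Afap1l1, the distant value lay away from the other group and widened the difference.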

How the results depend on the processing

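The number of called genes depended on the processing. The 104 genes, with 33 higher and 42 lower outside the lipid lists, became 48 (11 and 10) with the replicate block, 171 (63 and 72) with all 12 libraries in the fit and 245 (100 and 106) with estimated library weights. With median scaling 135 genes passed (34 and 69), and with no filter on low values 0 (0 and 0), where the smallest limma adjusted p was 0.0554 and 2021 genes had an unadjusted p under 0.05. Leaving out 1 library gave 5 to 315 called genes, 0 to 118 higher and 0 to 155 lower outside the lists. Genes whose groups did not overlap then numbered 832 to 1260 higher and 608 to 837 lower, with 3 libraries in one group. A pseudocount of 0.1, a minimum of 5 FPKM and a fit without trend gave 100, 138 and 73 called genes. Between SE-BDEV and CON-BDEV 0 genes passed in each alternative run. Replicate numbers showed no clear pairing of the samples. Deviations of same-numbered libraries correlated with r of 0.00, −0.11, 0.04 and −0.05, and no SE-BDEV library correlated best with its own number. A weak pairing could go unseen in such values, and the labels do not give one. No direction of a named gene reversed in any alternative, but this follows largely from groups that did not overlap and is no separate evidence. Unknown totals and 4 libraries a group limit the precision.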
